A study of Mus musculus with 6 samples.

Results

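The DNA replication genes are 49 mouse genes whose products license origins, unwind and copy DNA, supply nucleotides and histones for the copy, or drive entry into S phase. They were chosen by name, as the rows of the deposited matrices whose gene symbol is one of the 49, and all 49 were present among the 31053 features. All 49 genes had an entry in GENCODE M21 (GRCm38), each a protein-coding gene, and their positions are given below where a gene is described. They were measured in 6 single cell RNA-seq libraries of GC B-cells, the B cells of the germinal centre (GC), the structure in lymphoid tissue in which activated B cells divide and mutate their immunoglobulin genes. Libraries 1 to 3 of the Smc3 wt/wt group came from Cgamma1-Cre WT Control mice and libraries 1 to 3 of the Smc3 wt/- group from Cgamma1-Cre Smc3 +/- mice, so that every mouse carried Cγ1-Cre, a recombinase switched on as B cells join the GC reaction, and the labels set the groups apart by 1 deleted Smc3 allele. The groups also differed in sex as read from Xist and Y-linked transcripts: Smc3 wt/wt libraries 1 and 2 and Smc3 wt/- library 2 were male, and Smc3 wt/wt library 3 and Smc3 wt/- libraries 1 and 3 female. Smc3 encodes a core subunit of the cohesin ring, which holds sister chromatids together and folds chromosomes into loops. According to the methods of the study, splenic cells were sorted 8 days after immunization with sheep red blood cells. The methods give 3 Smc3 wt/- mice, and 6 Smc3 wt/wt mice with further wild-type data that are not analysed here. The labels do not tie libraries to mice, and neither age nor sort gate is given in the sources used here, so p-values measure the spread between these libraries, which may be technical.

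DNA replication starts when origin recognition proteins, Cdc6 and Cdt1 load the MCM helicase onto DNA in G1, a step called licensing. In S phase Cdc45 and the GINS complex join the helicase, primase and DNA polymerases copy both strands, and the sliding clamp Pcna and its loader keep the polymerases on DNA. In the GC, centroblasts (CB) of the dark zone divide rapidly, centrocytes (CC) of the light zone compete for T cell help, and selected centrocytes re-enter division in a transition called recycling. Other cells leave as memory B cells or as plasmablasts (PB), which still divide, and plasma cells (PC), which do not.

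The 6 matrices held 22939 barcodes and 156055938 unique molecular identifiers (UMIs, each 1 counted transcript molecule). After filters, 20809 cells remained, 1011 to 4963 per library, with a median of 3313 to 6219 UMIs per cell. Cells were clustered without any of the 49 genes and without 45 further replication genes, and clusters were named from marker genes, as CB-like (5406 cells in 2 clusters, led by Cenpf, Ube2c and Plk1 and by Ccnb2, Cdc20 and Cenpa), S-phase GC B-like (3121 cells, led by Ung), recycling-like (1527 cells, with Hspd1, Srm and C1qbp), CC-like (1555 cells, with Cd83 and Il4i1), PB-like (633 cells), PC-like (1435 cells) and, with Klf2 and Cd38, naive or memory B-like (1825 cells). All 9 GC B identity markers (among them Bcl6 and Rgs13) were detected in each library, and they summed to 1168 counts per 1000000 of all UMIs, immunoglobulin genes included, in Smc3 wt/- library 2 and to 4384 to 5221 in the other libraries. Not all cells were GC B-cells: T cell-like and myeloid-like clusters were also found, and the largest cluster, 3942 cells led by haemoglobin genes, stayed unnamed. Between 4 and 43 barcode sequences were shared by any 2 libraries. The library labelled Smc3 wt/- replicate 2 stood apart before any comparison. Immunoglobulin genes took 52.9% of its UMIs, where the other 5 libraries had 2.42% to 3.94%. It contributed 1361 of 1435 PC-like cells and 377 of 633 PB-like cells, but only 62 of the 3121 S-phase GC B-like cells. In its S-phase GC B-like cells, 9 of 11 erythroid markers were detected, with Car1 and Klf1 at 0, and the list summed to 8640 counts per 1000000 UMIs outside immunoglobulin genes (CPM, the unit of level used throughout) against 106 to 226 CPM in the other libraries. Most medians over the 49 genes are therefore also given without it, and values of single genes only in part.

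Smc3 itself gave no check of the labels. Libraries of this kind count transcript 3′ ends, and the study deleted exon 4. Whether transcripts of the deleted allele were counted here was not tested. The paper reports reduced Smc3 expression by RNA-seq in lymphomas with the deleted allele. In S-phase GC B-like cells Smc3 differed by a log2 fold change of -0.12 ± 0.14 (SE, Smc3 wt/- over Smc3 wt/wt, n = 3 against 3, adjusted p = 0.9997 by edgeR's quasi-likelihood test). It was -0.03 in CB-like, -0.12 in CC-like, -0.06 in recycling-like and -0.21 in PB-like cells, below 0 in each class and passing in none.

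Many replication genes are known targets of E2F transcription factors, so the promoter windows of the genes were searched for E2F-type letters. Windows ran from 250 bases before to 50 bases after each annotated start, 300 bases on GRCm38.p6 in the RefSeq table, which held 41 of the 49 genes. The motif was TTTCCCGC, TTTCGCGC, TTTGCCGC or TTTGGCGC on either strand, and overlapping matches on the 2 strands count separately. It was found for 16 of the 41 genes (39.0%), for 11 of 36 further replication genes (30.6%) and for 704 of all 27025 genes of the table (2.61%). By role, 7 of 9 licensing genes and 4 of 7 polymerase and primase genes had a match, against none of the 5 nucleotide supply genes and none of the 2 G1/S regulators in the table. The 47 windows of the 41 genes were also richer in G and C, with a median of 61.3% against 52.7% over all 32851 windows. The letters CCAAT were found for 25 of the 41 genes (61.0%; all genes 41.1%) and TTTGAA, the CHR letters of late cell cycle genes, for 5 (12.2%; all genes 20.2%). A match is a description of the letters and not a measured binding site, and a window without these letters is not shown to lack an E2F site. The windows below show the matches in capitals, in 2 licensing genes, a clamp loader gene and the clamp partner gene Pclaf, which had different patterns across GC states.
Mcm6 (chr1:128359656-128359955, minus strand): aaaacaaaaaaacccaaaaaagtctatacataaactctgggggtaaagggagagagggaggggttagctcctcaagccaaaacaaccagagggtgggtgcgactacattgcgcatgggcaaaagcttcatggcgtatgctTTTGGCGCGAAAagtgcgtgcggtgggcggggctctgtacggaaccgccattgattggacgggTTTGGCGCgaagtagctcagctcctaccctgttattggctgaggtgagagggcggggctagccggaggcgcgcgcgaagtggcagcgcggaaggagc
Mcm3 (chr1:20820263-20820562, minus strand): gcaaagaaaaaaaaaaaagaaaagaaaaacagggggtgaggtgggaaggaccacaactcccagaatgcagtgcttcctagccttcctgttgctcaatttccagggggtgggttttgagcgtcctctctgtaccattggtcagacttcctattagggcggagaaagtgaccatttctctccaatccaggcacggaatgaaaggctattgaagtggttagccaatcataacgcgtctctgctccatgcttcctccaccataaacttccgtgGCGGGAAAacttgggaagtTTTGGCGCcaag
Rfc3 (chr5:151651159-151651458, minus strand): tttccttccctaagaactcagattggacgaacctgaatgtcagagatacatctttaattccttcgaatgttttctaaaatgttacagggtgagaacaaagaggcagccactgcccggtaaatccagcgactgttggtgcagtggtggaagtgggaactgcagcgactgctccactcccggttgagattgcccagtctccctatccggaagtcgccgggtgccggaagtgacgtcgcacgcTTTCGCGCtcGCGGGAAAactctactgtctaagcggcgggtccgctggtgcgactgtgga
Pclaf (chr9:65890073-65890372, plus strand): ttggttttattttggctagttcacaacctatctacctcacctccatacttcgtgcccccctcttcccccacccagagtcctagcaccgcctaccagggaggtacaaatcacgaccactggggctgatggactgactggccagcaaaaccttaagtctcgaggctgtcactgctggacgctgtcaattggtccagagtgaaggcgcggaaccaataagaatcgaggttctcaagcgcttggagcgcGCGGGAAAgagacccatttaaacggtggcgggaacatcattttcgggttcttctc
In Mcm6 the first 2 of 3 matches overlap on opposite strands, beginning at positions -110 and -106 from the start, and in Pclaf the single match begins at position -5. The median log2 ratio (described below) of the 16 genes with a match and the 25 without was 0.82 and 0.84 between S-phase GC B-like and CC-like cells, -0.79 and -0.65 between CB-like and S-phase GC B-like cells, and 0.51 and 0.62 between recycling-like and CC-like cells. It was -1.40 and -0.90 between PB-like and S-phase GC B-like cells, and 1.96 (15 genes) and 1.65 between PB-like and PC-like cells.

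The summed level of the 49 genes was highest in S-phase GC B-like cells and, of the named B-lineage classes, lowest in PC-like cells. In S-phase GC B-like cells the sum was 13841, 12086 and 12526 CPM in Smc3 wt/wt libraries 1 to 3, and 14743, 8978 and 12666 CPM in Smc3 wt/- libraries 1 to 3. The mean was 12473 ± 1971 CPM (SD, n = 6 libraries), followed by 10853 ± 2006 in recycling-like, 8169 ± 1170 in CB-like, 7108 ± 1389 in CC-like and 6481 ± 2404 in PB-like cells. Naive or memory B-like cells had 1110 to 3967 CPM, and PC-like cells had 1642 CPM in Smc3 wt/wt library 3 and 569 CPM in Smc3 wt/- library 2, the 2 libraries with at least 20 such cells. Within each of the 6 libraries the order S-phase GC B-like, recycling-like, CB-like and CC-like was the same, while the ranges over libraries of neighbouring classes overlapped. In these classes Smc3 wt/- library 2 was the lowest library, and in these, the PB-like and the naive or memory B-like class the libraries numbered 1 of both groups were the 2 highest. Lower expression per cell and fewer cycling cells in a class cannot be told apart in such sums.

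**Figure D1:**
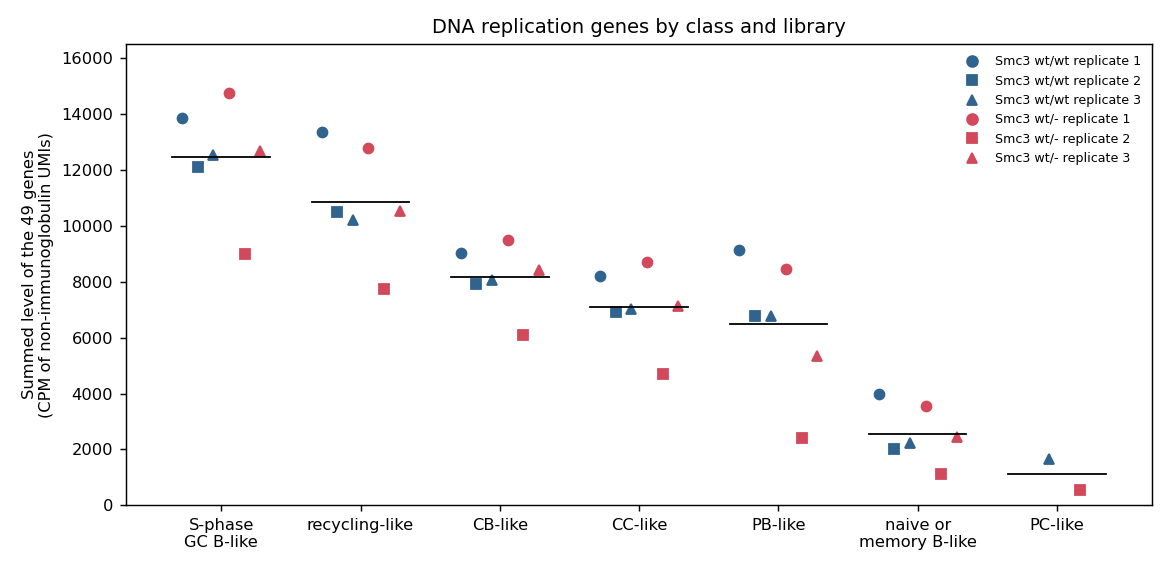
Summed level of the 49 DNA replication genes (CPM of UMIs outside immunoglobulin genes, linear axis) in each class and library with at least 20 cells; points are libraries, coloured by genotype and shaped by replicate number, and the line is the mean over libraries. S-phase GC B-like cells average 12473 CPM and CC-like cells 7108 CPM, and Smc3 wt/- replicate 2 is the lowest point in each of these classes.

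Differences between classes were taken within each library, as log2 ratios of CPM with 5 CPM added, and are a description without a test, because the classes were clustered from the same cells. S-phase GC B-like cells had higher levels than CC-like cells in all 6 libraries for 43 of the 49 genes and lower levels in all for none. Of all 8246 genes compared, 16.8% were higher in every library and 14.0% lower. The median log2 ratio was 0.82 ± 0.05 (SD over libraries) for the 49 genes and 0.02 for all genes, and without Smc3 wt/- replicate 2 it was 0.80, with 45 genes higher in every library (background 22.5%). With a looser cell filter or with doublets kept, where the large cluster led by haemoglobin genes was named CC-like, the median was 1.26 or 1.24 and all 49 genes were higher in every library (background 16.6% each). CB-like against S-phase GC B-like cells, 38 genes were lower in all 6 libraries (background 17.9%) and 2, Pclaf and Rrm1, higher (background 15.4%), with a median of -0.73 ± 0.05 (-0.69 without Smc3 wt/- replicate 2). With the replication genes kept among the clustering genes that median was -1.24. Recycling-like cells were above CC-like cells in all 6 libraries for 41 genes (background 20.8%) and below for none (background 19.9%), with a median of 0.56 ± 0.05 (0.53 without that library, and 0.99 and 0.93 with the looser filter and with doublets kept). The S-phase class was named because Ung and Hells, 2 S-phase markers, were among its 10 leading genes. A higher level of the 49 genes in this class, in each pair that holds it, can therefore follow in part from the naming. Over the whole S-phase marker list the mean log2 fold of this class against the other cells was 0.24. That was below CB-like cluster 1 (0.54) and the recycling-like cluster (0.39), so that list as a whole does not set the class apart.

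Licensing genes, with the lowest median ratio of CB-like to S-phase GC B-like cells after the 3 G1/S regulators, are described first. Mcm6 (chromosome 1, 128331590 to 128359664), a subunit of the helicase, was at 780, 628 and 681 CPM in S-phase GC B-like cells of Smc3 wt/wt libraries 1 to 3 and at 765, 462 and 641 CPM in those of the Smc3 wt/- libraries. In CB-like cells it was at 119 to 242 CPM and in CC-like cells at 169 to 359 CPM, so that the S-phase values of the 6 libraries lay above all CB-like and CC-like values. Mcm3 (chromosome 1, 20802968 to 20820312), another helicase subunit, was at 374 to 632 CPM in S-phase GC B-like and at 126 to 245 CPM in CB-like cells. Cdc6 (chromosome 11, 98907801 to 98923940), which helps to load the helicase, differed most: it was at 100.4 ± 9.7 CPM in S-phase GC B-like, 63.8 ± 17.1 in recycling-like, 32.5 ± 8.0 in CC-like and 18.01 ± 3.197 in CB-like cells (SD, n = 6). All 10 licensing genes were lower in CB-like than in S-phase GC B-like cells in every library, with a median log2 ratio of -1.31, and 9 of 10 were higher in S-phase GC B-like than in CC-like cells, with a median of 0.99. Orc1, a subunit of the origin recognition complex, was low in every class, at 15.3 ± 5.9 CPM in S-phase GC B-like and 3.4 ± 1.7 CPM in CB-like cells.

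Genes of helicase activation had a smaller median difference than licensing genes between CB-like and S-phase GC B-like cells. Gins2 (chromosome 8, 120578633 to 120589304), a subunit of the GINS complex, was at 94.3 to 144 CPM in S-phase GC B-like cells, 50.5 to 90.0 CPM in CC-like and 44.4 to 54.2 CPM in CB-like cells. Gins4, of the same complex, was at 66.5 ± 9.2 CPM in S-phase GC B-like and 54.6 ± 6.3 CPM in CB-like cells, with overlapping ranges. The 6 genes of the group had a median log2 ratio of -0.61 between CB-like and S-phase GC B-like cells, and 4 of them were lower in every library.

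Pcna (chromosome 2, 132249162 to 132253314), the sliding clamp, was at 387 to 746 CPM in S-phase GC B-like cells, 304 to 691 CPM in recycling-like cells and 158 to 357 CPM in CB-like cells. Pclaf (chromosome 9, 65890237 to 65903266), which binds the clamp, was instead highest in CB-like cluster 1 in all 6 libraries, at a mean of 2203 CPM against 1591 ± 210 CPM in S-phase GC B-like cells. Over both CB-like clusters its log2 ratio to S-phase GC B-like cells was 0.28 ± 0.09 (SD, n = 6), higher in 6 of 6 libraries. That direction depended on where the clusters were drawn: it was -0.29 at a finer clustering and -0.99 with the replication genes kept among the clustering genes. Rfc2, a subunit of the clamp loader, was at 520 ± 83 CPM in S-phase GC B-like and 358 ± 59 CPM in CC-like cells, and at 369 ± 80 CPM in recycling-like cells, a log2 ratio to CC-like cells of 0.03 ± 0.20 that was -0.15 at the finer clustering and -0.03 without Smc3 wt/wt replicate 1. Among the 5 named GC clusters, Rfc1 and Rpa3 were the 2 genes whose lowest mean was in CC-like cells.

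Among polymerases, Pold1 (chromosome 7, 44532746 to 44548849), the catalytic subunit of polymerase delta, was at 94.3 to 188 CPM in S-phase GC B-like and 79.6 to 172 CPM in CB-like cells, ranges that overlapped although it was lower in CB-like cells within each of the 6 libraries (log2 ratio -0.20 ± 0.06). Prim1, the catalytic subunit of primase, was at 104 to 188 CPM in S-phase GC B-like and 79.6 to 111 CPM in CB-like cells, and it too was lower in CB-like cells in 6 of 6 libraries (log2 ratio -0.61 ± 0.18). Pold2, another polymerase delta subunit, was the gene with the lowest ratio between S-phase GC B-like and CC-like cells, at -0.08 ± 0.26, higher in 2 of 6 libraries, and the sign turned with a looser cell filter (0.53) and with doublets kept (0.57). The 2 genes that join the lagging strand, Lig1, the DNA ligase, and Fen1, the flap nuclease, were higher in S-phase GC B-like than in CC-like cells in every library: Lig1 was at 363 ± 34 against 178 ± 24 CPM and Fen1 at 253 ± 52 against 162 ± 36 CPM.

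Nucleotide supply genes had the smallest median difference of the role groups between S-phase GC B-like and CB-like cells, with a median log2 ratio of -0.15 over 5 genes. Dut (chromosome 2, 125247190 to 125258608), which removes dUTP, was highest in recycling-like cells in all 6 libraries, at 703 ± 91 CPM against 606 ± 128 CPM in S-phase GC B-like cells. Tyms, thymidylate synthase, was highest of the 5 named GC clusters in recycling-like cells in 5 of 6 libraries. Rrm2 (chromosome 12, 24708241 to 24714146), the small subunit of ribonucleotide reductase, was at 634 ± 153 CPM in S-phase GC B-like, 656 ± 174 CPM in recycling-like, 419 ± 67 CPM in CB-like and 298 ± 82 CPM in CC-like cells, and its recycling-like to CC-like log2 ratio was 1.13 ± 0.11. Rrm1, the large subunit, and Tk1, thymidine kinase, had their highest mean in CB-like cluster 1, Rrm1 in all 6 libraries and Tk1 in 4. Over both CB-like clusters Rrm1 was at a log2 ratio of 0.23 ± 0.05 and Tk1 at 0.07 ± 0.10 to S-phase GC B-like cells, and as for Pclaf the sign turned at the finer clustering, to -0.18 and -0.36.

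All 4 histone supply and chromatin copying genes and all 3 G1/S regulators were lower in CB-like than in S-phase GC B-like cells in every library. Slbp (chromosome 5, 33634952 to 33652574), which binds the stem loop of histone mRNA, was at 1268, 935 and 945 CPM in S-phase GC B-like cells of Smc3 wt/wt libraries 1 to 3 and at 1444, 630 and 1045 CPM in those of the Smc3 wt/- libraries, above the CC-like value of its own library each time (287 to 665 CPM). Uhrf1, which recruits the maintenance DNA methyltransferase, was at 168 ± 20 CPM in S-phase GC B-like, 103 ± 12 CPM in CC-like and 87.6 ± 12.8 CPM in CB-like cells. Ccne2 (chromosome 4, 11191351 to 11204779), cyclin E2, was at 118 ± 48 CPM in S-phase GC B-like, 31.3 ± 7.8 CPM in CC-like and 26.1 ± 9.0 CPM in CB-like cells. E2f1, a transcription factor of G1/S genes, had a log2 ratio of -1.81 ± 0.09 between CB-like and S-phase GC B-like cells. Among the 5 named GC clusters, Ccne1, cyclin E1, was highest in recycling-like cells in 5 of 6 libraries, at 73.2 ± 9.8 CPM against 64.0 ± 12.9 CPM in S-phase GC B-like and 20.3 ± 6.9 CPM in CC-like cells.

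Taking the 5 named GC clusters one by one, 36 of the 49 genes had their highest mean in the S-phase GC B-like cluster, 22 of them in all 6 libraries. Another 9 genes had it in the recycling-like cluster (Dut in all libraries, also Rrm2, Tyms, Ccne1, Pold2, Mcm10, Gins4, Rfc5 and Pola2), and 4 in CB-like cluster 1 (Pclaf, Rrm1, Tk1 and Prim2). All 10 licensing genes were among the 36. CB-like cluster 5, led by mitotic genes, held the lowest mean for all but 4 genes (Orc1, Cdt1, Rfc1 and Rpa3). The summed level was 9068 CPM in CB-like cluster 1 and 4423 CPM in CB-like cluster 5. Highest and lowest clusters were not counted over all genes, so these counts have no background and only describe the 49 genes.

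**Figure D2:**
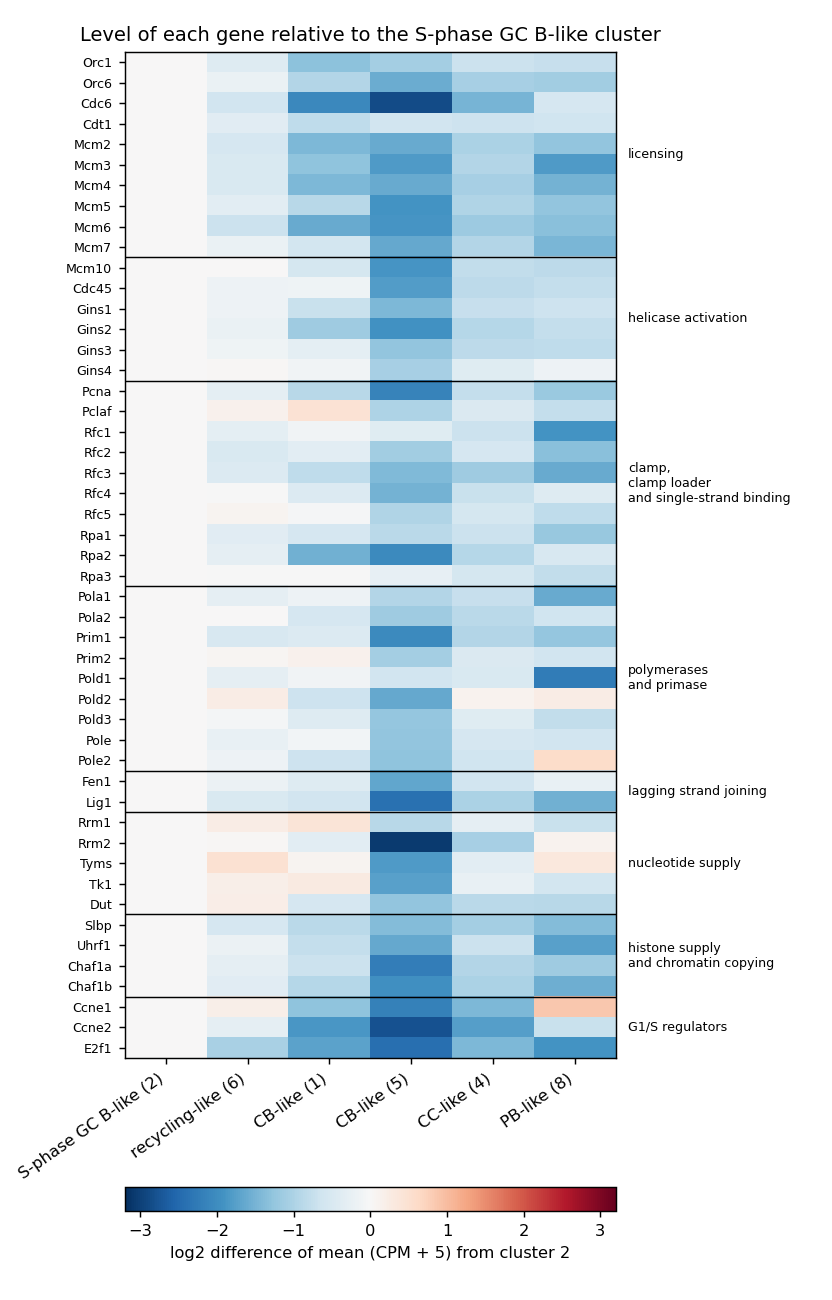
Heat map of each of the 49 genes (rows, grouped by role) in 6 clusters (columns), as the log2 difference of its mean level over libraries (CPM + 5) from the S-phase GC B-like cluster. Blue is lower and red higher than in that cluster: CB-like cluster 5 is blue for nearly all genes, while Pclaf, Rrm1 and Tk1 are red in CB-like cluster 1 and Ccne1 and Pole2 in PB-like cells.

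Of 45 further replication genes chosen by role, 44 could be compared between S-phase GC B-like and CC-like cells, and 25 were higher and 1 lower in every library, with a median log2 ratio of 0.48. Dck, deoxycytidine kinase, was at 1.30 ± 0.35. The lowest were Ccna2, cyclin A2, at -0.56 ± 0.60, and Orc3, an origin recognition subunit, at -0.27 ± 0.13. Between CB-like and S-phase GC B-like cells Ccna2 had a log2 ratio of 1.94 ± 0.07 and Dbf4, the activator of the Cdc7 kinase, 1.11 ± 0.40, higher in 6 of 6 libraries each. Cdca7, a chromatin factor, was at -2.05 ± 0.30 and Dtl, which marks Cdt1 for degradation, at -1.21 ± 0.28. Pold4, the small subunit of polymerase delta, was lower in recycling-like than in CC-like cells, at -0.85 ± 0.13, as was Mcm9 at -0.38 ± 0.20, where Clspn, a checkpoint mediator, was at 1.06 ± 0.10.

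PB-like cells were separated from PC-like cells by their higher S-phase markers, so a higher level of the 49 genes follows in part from the naming. In the 2 libraries with at least 20 cells of both classes, 46 of 47 genes were higher in PB-like than in PC-like cells in both (background 53.7%) and none lower (background 13.6%), with a median log2 ratio of 1.65 ± 0.18. Rrm2 was at 650 against 36.7 CPM in Smc3 wt/wt library 3 and at 187 against 10.2 CPM in Smc3 wt/- library 2, a log2 ratio of 3.82 ± 0.22 (SD, n = 2). Pclaf was at 981 against 266 CPM and at 446 against 4.2 CPM in the same libraries. Orc6, an origin recognition subunit, was at 136.1 and 29.6 CPM in PB-like cells of these libraries, and in PC-like cells it had no UMI in Smc3 wt/wt library 3 and 4.87 CPM in Smc3 wt/- library 2. By contrast, Gins4, E2f1 and Pold2 had the lowest ratios, at 0.25 ± 0.25, 0.27 ± 0.05 and 0.34 ± 0.51, where E2f1 was at -0.09 with a looser cell filter and Pold2 at -0.03 without Smc3 wt/- replicate 2. With Smc3 wt/- replicate 2 left out, which leaves 1 library, 48 of 49 genes were higher (background 56.0%), with a median of 1.80. With at least 10 cells per library, a limit chosen after seeing the data, all 6 libraries entered and 42 of 48 genes were higher in every one (background 25.1%). Of the other replication genes, Clspn and Ccna2 had the highest ratios, 2.89 ± 1.18 and 2.69 ± 1.48, and Rrm2b and Mcm9 the lowest, -0.64 ± 0.88 and -0.03 ± 0.53.

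Against S-phase GC B-like cells, PB-like cells had lower levels in all 6 libraries for 39 of 49 genes (background 32.9%) and higher levels in all for none (background 15.7%), with a median log2 ratio of -0.89 ± 0.40. Without Smc3 wt/- replicate 2 the median was -0.78, with 39 genes lower (background 38.0%) and 4 (Tyms, Ccne1, Pold2 and Pole2, named after their values were seen) higher in every library (background 20.5%). Pold1 was lowest, at -2.32 ± 0.39, followed by Rfc1, the large clamp loader subunit, at -1.94 ± 0.23 and E2f1 at -1.94 ± 0.21. Ccne1 was highest, at 0.60 ± 0.98: it was at 271, 92.6 and 80.9 CPM in PB-like cells of Smc3 wt/wt libraries 1 to 3 and at 181, 33.1 and 69.9 CPM in those of the Smc3 wt/- libraries, above the S-phase value of its own library in all but Smc3 wt/- library 2. Pole2, a polymerase epsilon subunit, at 0.49 ± 0.38, and Tyms, at 0.27 ± 0.62, were also higher in 5 of 6 libraries, but Tyms was at -0.03 with all UMIs as the denominator, -0.09 at the finer clustering and -0.19 with the replication genes kept among the clustering genes. Among other replication genes Cdca7 was at -3.17 ± 0.74 and Pold4 at -2.95 ± 0.76, and Ccna2 at 0.99 ± 0.45 and Rnaseh2c, an RNase H2 subunit, at 0.57 ± 0.23.

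The genotype comparison asked whether loss of 1 Smc3 allele went with a difference in these genes within a class. UMIs were summed per library and class and tested with edgeR's quasi-likelihood test, Benjamini-Hochberg adjusted over all genes tested in the class. None of the 49 genes passed an adjusted p of 0.05 in S-phase GC B-like, CB-like, CC-like, recycling-like or PB-like cells, where 0.0% of all genes tested passed in each class. DESeq2 called 1 gene in S-phase GC B-like and 2 in PB-like cells, none of them among the 49. At an unadjusted p under 0.05, the members were 0 of 49 in S-phase GC B-like (background 2.43%), 1 of 49 in CB-like (background 2.43%), 1 of 49 in CC-like (background 1.91%), 0 of 49 in recycling-like (background 1.78%) and 5 of 48 in PB-like cells (background 5.6%). Of the further replication genes none passed an adjusted p of 0.05 in any class, of 45, 45, 44, 45 and 38 tested. At an unadjusted p under 0.05 they were 1, 1, 1, 0 and 6 in the same order, with the backgrounds just given.

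In the 4 GC classes the median log2 fold change of the 49 genes (Smc3 wt/- over Smc3 wt/wt) was -0.04 in S-phase GC B-like, -0.07 in CB-like, -0.06 in CC-like and -0.13 in recycling-like cells, less than the spread of libraries (SD 0.17 to 0.22). Without Smc3 wt/- replicate 2 the medians were 0.04, 0.03, 0.07 and 0.02, and without Smc3 wt/- replicate 1 they were -0.11, -0.15, -0.15 and -0.23. In S-phase GC B-like cells the median was also above 0, at 0.01, without Smc3 wt/wt replicate 3, and in CC-like cells it was 0.02 when libraries were clustered without integration. Without Smc3 wt/wt replicate 1 the medians were -0.03, -0.04, -0.03 and -0.06, and at the finer clustering they were -0.09, -0.10, -0.10 and -0.06. With sex as a covariate the medians were -0.14, -0.14, -0.11 and -0.19. Over all genes tested, the median lay between -0.0151 and -0.0002 in these classes with all libraries, without either of these Smc3 wt/- libraries and with the covariate. The number of genes with a fitted change below 0 was 30 of 49 (background 51.5%), 33 (background 50.5%), 29 (background 50.2%) and 42 (background 50.5%) with all libraries. It was 19, 21, 20 and 22 without Smc3 wt/- replicate 2, 42, 39, 42 and 44 without Smc3 wt/- replicate 1, and 41, 36, 36 and 43 with sex as a covariate. The share of all genes below 0 was not counted for these alternatives, whose medians over all genes lie in the range above. Groups did not overlap for 5 of 49 genes in S-phase GC B-like cells (background 8.5%), 7 in CB-like (background 9.4%), 6 in CC-like (background 8.9%) and 7 in recycling-like cells (background 8.67%). For the median gene, the library labelled Smc3 wt/- replicate 2 lay between -0.40 and -0.30 from the mean of all libraries on the log2 scale in these classes. Erythroid markers were higher in that library as given above, and their part in this was not tested. In recycling-like cells Smc3 wt/- libraries 1 to 3 lay at 0.16, -0.40 and 0.0094 on that scale. Each was below its same-numbered Smc3 wt/wt library (0.21, 0.032 and 0.015), which did not hold for each number in the other GC classes. The SD above does not take out variation shared by same-numbered libraries.

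Ccne1 had the lowest unadjusted p in 3 of the 4 GC classes and was higher in the Smc3 wt/- libraries each time. In CB-like cells it was at 18.4, 16.5 and 16.6 TMM-normalised CPM in Smc3 wt/wt libraries 1 to 3 and at 22.5, 29.8 and 20.3 in Smc3 wt/- libraries 1 to 3, groups that did not overlap. The log2 fold change was 0.42 ± 0.17 (SE, unadjusted p = 0.041, adjusted p = 0.9999 by edgeR), and 0.34 without Smc3 wt/- replicate 2. It was 0.33 ± 0.15 in S-phase GC B-like and 0.26 ± 0.12 in recycling-like cells, with adjusted p = 0.9997 and 0.9999 by edgeR. Tyms was at 96.6 to 102 in the Smc3 wt/wt and 119, 200 and 106 in the Smc3 wt/- libraries in CB-like cells, a log2 fold change of 0.45 ± 0.22, in which Smc3 wt/- library 2 was the highest. Apart from Ccne1 in CB-like cells, the changes in this paragraph are given with all libraries only. Rpa2, a subunit of the single-strand binding complex, was at 93.8 to 102 against 115 to 140 in CC-like cells, at 0.39 ± 0.16, with an adjusted p of 0.9997 by edgeR. Orc1 in S-phase GC B-like cells was at 21.3, 16.7 and 17.1 against 16.1, 7.2 and 10.7, at -0.48 ± 0.24. The remaining genes named by their p were Dut in S-phase GC B-like (-0.29 ± 0.22), Chaf1b, a histone chaperone subunit, in CB-like (0.29 ± 0.14), Gins4 (0.43 ± 0.22) and Pole (-0.69 ± 0.36) in CC-like, and Pola1 (-0.27 ± 0.16) and Uhrf1 (-0.20 ± 0.12) in recycling-like cells.

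**Figure D3:**
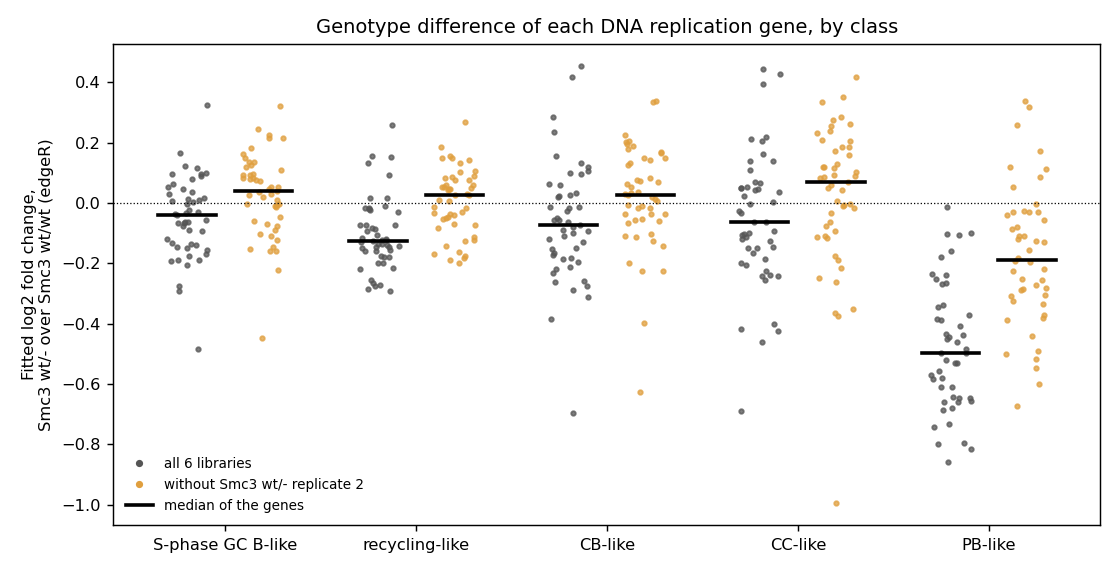
Fitted log2 fold change (edgeR, Smc3 wt/- over Smc3 wt/wt) of each DNA replication gene in each class; each point is a gene, grey with all 6 libraries and orange without Smc3 wt/- replicate 2, and the bar is the median of the genes. The median in PB-like cells is -0.50 with all libraries and -0.19 without that replicate, and in the other classes the bars lie on both sides of 0.

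In PB-like cells all 48 genes tested had a fitted change below 0 (background 49.2%), with a median log2 fold change of -0.50 against 0.01 over all 5789 genes, and none passed the test. Without Smc3 wt/- replicate 2 it was 40 of 48 genes and a median of -0.19. The spread between libraries of the median gene was 0.49 on the log2 scale, with Smc3 wt/- replicate 2 at -1.0004 and the other 5 libraries between -0.14 and 0.44. The groups did not overlap for 6 of 48 genes (background 11.8%). Uhrf1 had the lowest unadjusted p: it was at 48.2, 48.7 and 43.3 TMM-normalised CPM in Smc3 wt/wt libraries 1 to 3 and at 32.2, 20.4 and 29.1 in Smc3 wt/- libraries 1 to 3. Its log2 fold change was -0.80 ± 0.27 (SE, unadjusted p = 0.014, adjusted p = 0.793 by edgeR) and -0.60 without Smc3 wt/- replicate 2. Dut was at 268, 340 and 368 against 236, 108 and 225, at -0.79 ± 0.30 (-0.52 without that library), and Rfc3 at 84.3, 71.0 and 64.6 against 57.2, 24.8 and 44.2, at -0.82 ± 0.31 (-0.50 without it). In each of the 3 genes all Smc3 wt/- values lay below all Smc3 wt/wt values, and Smc3 wt/- library 2 was the lowest. With the replicate number as a block, 21 of 48 genes had an unadjusted p under 0.05 (background 9.09%) and none passed adjusted, at a median of -0.56. With sex as a covariate it was 9 of 48 genes (background 10.1%) at a median of -0.68. Without Smc3 wt/- replicate 1 it was 29 of 48 genes (background 14.1%) at a median of -0.80, and without Smc3 wt/wt replicates 1, 2 and 3 in turn it was 3, 1 and 2 genes (backgrounds 4.43%, 3.26% and 2.88%). It was 4 without Smc3 wt/- replicate 2 (background 4.36%), 5 without Smc3 wt/- replicate 3 (background 5.5%) and 17 of 49 without a filter on low counts (background 6.85%). The libraries differed in what the PB-like class held: immunoglobulin genes took 44.3% of the UMIs of PB-like cells of Smc3 wt/- library 2 and 13.4% to 17.5% of those of the other libraries. All 17 plasma cell markers were detected in PB-like cells of each library, summing to 134000 CPM in Smc3 wt/- library 2, 34200 and 39800 CPM in the other Smc3 wt/- libraries, and 26400 to 36500 CPM in the Smc3 wt/wt libraries. In S-phase GC B-like cells the same list summed to 3930 CPM in Smc3 wt/- library 2 and to 4080 to 4390 CPM in the others. The part of these markers in the result was not tested.

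A model over both classes tested whether the genotype difference in PB-like cells differed from that in S-phase GC B-like cells. None of the 49 genes passed (0.0% of all 7552 genes did), with 11 of 49 at an unadjusted p under 0.05 (background 6.1%) and a median difference of -0.38 on the log2 scale. Rrm2, at -0.66 ± 0.25, and Slbp, at -0.63 ± 0.24, had the lowest p, with adjusted p = 0.768 by edgeR for both, and were named here after their values were seen. Without Smc3 wt/- replicate 2 the median was -0.24 and 8 genes had an unadjusted p under 0.05 (background 6.52%). Without Smc3 wt/- replicate 1 it was 29 genes (background 10.3%), without Smc3 wt/- replicate 3 it was 0 (background 5.15%), and without Smc3 wt/wt replicates 1, 2 and 3 in turn it was 1, 5 and 7 (backgrounds 4.68%, 3.92% and 3.72%). Between CB-like and CC-like cells none of the 49 genes passed (0.033% of all 9090 genes did), with 2 of 49 at an unadjusted p under 0.05 (background 3.53%) and a median of 0.02.

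Single cells showed how the summed levels were made up. Each cell was thinned to 2000 UMIs, and cells in which at least 0.5% of UMIs came from the 49 genes were counted, a range and not a cell type. Their share was 93.3 ± 8.0% of S-phase GC B-like, 95.1 ± 5.9% of recycling-like, 66.2 ± 5.7% of CB-like and 51.6 ± 9.9% of CC-like cells (SD, n = 6 libraries). In naive or memory B-like cells, where few cells divide, it was 1.2% to 21.6%, and in PC-like cells of Smc3 wt/- library 2 it was 0 of 1357 cells (95% exact interval up to 0.271%). Median depth before thinning was 1893 to 2847 UMIs in naive or memory B-like, 4219 to 6872 in S-phase GC B-like and 9065 to 19215 in PB-like cells. Thinning left out cells below 2000 UMIs and so kept 1145 of 1825 naive or memory B-like cells, with 51 of 111 in Smc3 wt/wt library 1, the library at 21.6%. Of the cells used, 246 of 3102 S-phase GC B-like and 1101 of 5254 CB-like cells lay within 0.1 percentage points of the limit. Without thinning the shares were 93.8%, 95.5%, 63.5% and 49.2% in the same order, and in naive or memory B-like cells 0.9% to 9.9% (mean 4.9%, against 9.3% after thinning).

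In PB-like cells the share at or over the limit was 65.2% of 23 cells (95% exact interval 42.7 to 83.6%), 50.9% of 53 (36.8 to 64.9%) and 50.9% of 57 (37.3 to 64.4%) in Smc3 wt/wt libraries 1 to 3, and 64.7% of 51 (50.07 to 77.6%), 9.4% of 373 (6.6 to 12.8%) and 37.3% of 67 (25.8 to 49.99%) in Smc3 wt/- libraries 1 to 3. The interval of Smc3 wt/- library 2 lay below those of the other 5, and Smc3 wt/- libraries 1 and 3 also had intervals that did not overlap. Intervals cover counting error only. In Smc3 wt/- library 2 the median PB-like cell had 1 UMI of the 49 genes among 2000, and 42.6% had none, against 6 to 18 UMIs in the median cell of the other libraries. PC-like cells of the same library had a median of 0. With immunoglobulin UMIs removed before thinning to 1000 UMIs, an alternative chosen after seeing the data, the share in PB-like cells averaged 51.5 ± 22.1% over libraries, against 45.0 ± 18.5% with those UMIs kept and the same thinning and 46.4 ± 20.9% at 2000 UMIs. In Smc3 wt/- library 2 these shares were 13.0%, 10.6% and 9.4%.

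**Figure D4:**
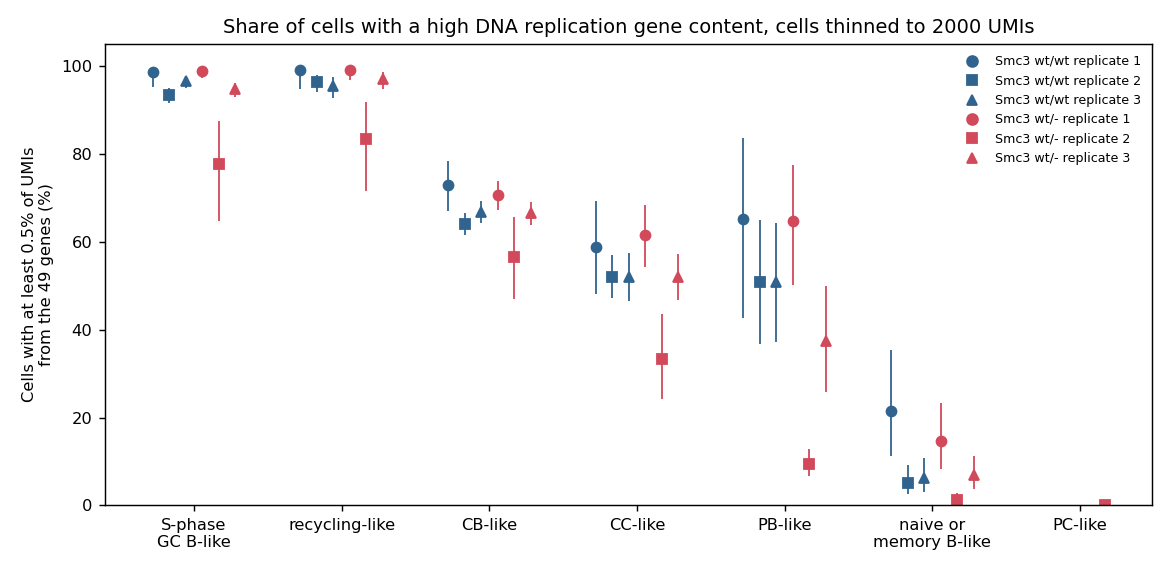
Percentage of cells with at least 0.5% of their UMIs from the 49 genes (linear axis) by class and library, after thinning each cell to 2000 UMIs; points are libraries and bars are 95% exact binomial intervals, which cover counting error only. S-phase GC B-like cells average 93.3%, and PB-like cells of Smc3 wt/- replicate 2 are at 9.4%.

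For single genes, shares of cells with at least 1 UMI were taken. After thinning, a Pcna UMI was found in 43.1% to 72.9% of S-phase GC B-like cells per library, 22.6% to 43.0% of CB-like cells, 6.4% to 43.5% of PB-like cells and, at 6.4% to 23.5%, of naive or memory B-like cells, the class read as background here. The lowest value in each of these classes was that of Smc3 wt/- library 2. Without thinning, a Pcna UMI was found in 61.3% to 95.8% of S-phase GC B-like and 9.9% to 27.9% of naive or memory B-like cells. A Pclaf UMI was found in 84.3% to 88.7% of CB-like, 65.5% to 88.9% of S-phase GC B-like and 6.2% to 29.4% of naive or memory B-like cells after thinning, and in 0.2% of PC-like cells of Smc3 wt/- library 2.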

How the data were processed

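The deposited matrices hold whole-number UMI counts per gene and barcode, made by the authors with Cell Ranger (3.0.2 in the matrix headers) from 10x 3′ libraries. The submitters' processing notes name mm10, R 4.0.2 and Seurat 4.0.0, and the counts were not normalized. The 49 genes, the gene lists and the tests were chosen with earlier results of these data known. Cells with at least 500 genes and at most 10% mitochondrial UMIs were kept, and 759 doublets (3.52%) called by Scrublet in scanpy 1.11.5 were removed. Libraries were integrated and clustered with Seurat 5.3.0 without immunoglobulin or replication genes. Levels are counts per 1000000 UMIs outside immunoglobulin genes, with 5 CPM added for ratios, over libraries with at least 20 cells of a class.

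Genotypes were compared on UMIs summed per library and class with edgeR 4.0.16 (TMM, filterByExpr, quasi-likelihood test, two-sided, Benjamini-Hochberg over all genes tested, R 4.3.3). DESeq2 1.42.0 and other filters, clusterings and left-out libraries were alternatives. The labels give both groups the replicate numbers 1 to 3. Deviations of same-numbered libraries correlated at 0.11 to 0.28 in all classes but CC-like, where 1 pair was at 0.03. Differently numbered libraries lay between -0.29 and 0.15, with Smc3 wt/wt library 2 and Smc3 wt/- library 3 at 0.11 in CB-like and 0.15 in CC-like cells. On simulated counts with 200 of 9209 genes changed by a log2 value of 1 the test recovered 111 in S-phase GC B-like cells, and with 200 of 5789 genes it recovered 0 in PB-like cells (171 at a log2 value of 2). Genes named with full values were the 2 with most UMIs per role, the 3 with the lowest p per class, and the 3 highest and lowest ratios per pair of classes (2 for the further replication genes, of which 1 gene is not reported here).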

Additional observations from a re-analysis of the deposited data

How the results depend on the processing

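None of the 49 genes passed the genotype test under any alternative run. The number of all genes called moved: without a filter on low counts it was 14 in S-phase GC B-like and 169 in PB-like cells, by DESeq2 1 and 2, with sex as a covariate 1 in PB-like cells, and without integration 1 in CB-like cells, against 0. Leaving out 1 library gave 0 to 1 calls in CB-like and in PB-like cells. For the difference between classes, calls were 52 (PB-like minus S-phase GC B-like) and 27 (CB-like minus CC-like) without the filter, and 0 to 9 and 0 to 7 with 1 library left out. The replicate block changed no call, with medians of -0.05, -0.12, -0.07, -0.15 and -0.56 in S-phase GC B-like, CB-like, CC-like, recycling-like and PB-like cells. With the block and without Smc3 wt/- replicate 2, chosen after seeing the data, 33, 28, 8, 4 and 10 genes were called in these classes.

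The median ratio of S-phase GC B-like to CC-like cells was 0.91 and 0.66 with 1 and 20 CPM added, 0.73 at resolution 1, 1.26 with a looser cell filter, 1.24 with doublets kept and 0.69 with replication genes kept in the clustering. In the same terms CB-like to S-phase GC B-like cells gave -0.79 and -0.56, -1.24 with replication genes kept and -0.85 without integration, which also lacks Smc3 wt/- replicate 2 (-0.69 with only that library left out). Recycling-like to CC-like cells gave 0.50 with 20 CPM, 0.44 at resolution 1, 0.99 with the looser filter, 0.93 with doublets kept and 0.74 with replication genes kept. PB-like to PC-like cells gave 2.06 and 1.18 with 1 and 20 CPM, 2.28 per all UMIs, 2.29 with at least 10 cells (6 libraries), 2.06 with the looser filter and 1.97 with replication genes kept (4 libraries each, against 2). PB-like to S-phase GC B-like cells gave -0.99 and -0.78 with 1 and 20 CPM, -1.15 per all UMIs (42 genes lower in every library), -0.70 with the TMM-scaled denominator (37 lower, 2 higher), -0.73 without integration (38 lower, 4 higher; again without Smc3 wt/- replicate 2, whose removal alone gave -0.78 with 39 lower and 4 higher) and -0.69 with replication genes kept (28 lower). The median of all genes in that pair was -0.21, and -0.46 per all UMIs and -0.04 with the TMM-scaled denominator. Counts of genes in that pair are given here without the share of all genes in the same setting. They are therefore no result about the replication genes alone. Thinned to 1000 UMIs, the PC-like share averaged 2.38% over 2 libraries: still 0 of 1361 cells in Smc3 wt/- library 2, and 4.76% of 21 cells in Smc3 wt/wt library 3, which gave no value at 2000 UMIs. With the looser filter or doublets kept, the cluster led by haemoglobin genes was named CC-like. Signs turned for Pold2 against CC-like cells (0.53 with the looser filter, 0.57 with doublets kept), and, at resolution 1 and with replication genes kept, for CB-like ratios of Pclaf (-0.29 and -0.99), Rrm1 (-0.18 and -0.96) and Tk1 (-0.36 and -1.49). They also turned for recycling-like ratios of Rfc2 (-0.15) and Pold1 (-0.048) at resolution 1, for Rfc2 without Smc3 wt/wt replicate 1 (-0.035; 0.0825 at most with 1 library left out), for the PB-like to PC-like ratios of E2f1 with the looser filter (-0.092) and of Pold2 without Smc3 wt/- replicate 2 (-0.026, against 0.70 without Smc3 wt/wt replicate 3), and for Tyms in PB-like cells (-0.033 per all UMIs, -0.091 at resolution 1, -0.19 with replication genes kept). The cause was not tested. Without integration, the genotype tests in S-phase GC B-like and recycling-like cells were not run, since a library had under 20 cells.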
